A study of Mus musculus with 620 samples.

Results

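The comparison described here is that of circulating white blood cells from aged mice in which GLP-1R, the receptor of glucagon-like peptide 1, was knocked down in the hypothalamus, against white blood cells from aged control mice. Its members are the 10 blood libraries of the ST cohort labelled ST_A_ctrl_KD (5 knockdown libraries) and ST_A_ctrl (5 control libraries), out of 28 white blood cell libraries and 208 libraries of 7 tissues in that cohort and 620 libraries in the series. The study measured poly(A) RNA in bulk across the mouse body under different ages, drug treatments (exenatide, a GLP-1R agonist, and rapamycin, an mTOR inhibitor) and the hypothalamic knockdown. The other 18 blood libraries of the cohort were young controls (ST_Y_ctrl, 5), aged mice given exenatide without (ST_A_Ex, 4) or with the knockdown (ST_A_Ex_KD, 5), and aged mice given rapamycin (ST_A_rapa, 4). The labels place all 28 in sequencing batch 5 and give them as separate animals; strain, sex, age in months, dose, what the control mice received, and how, where and for how long the knockdown was made are details the sources used here do not give. The hypothalamus was not among the ST tissues, so the knockdown itself was not checked here.

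GLP-1R is a receptor coupled to cyclic AMP that binds the gut and brainstem peptide GLP-1. Neurons of the hypothalamus carry it, and there it takes part in the control of feeding, body weight and autonomic outflow. Signals from the hypothalamus reach blood cells through adrenal hormones and sympathetic nerves, which act on the release of neutrophils from bone marrow, the trafficking of lymphocytes and the transcription of rapidly induced genes. Blood leukocytes are a mixture of neutrophils, monocytes, B, T and natural killer (NK) cells, with some red cells and platelets, and in bulk RNA fewer cells of a type and less RNA per cell cannot be told apart.

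Levels are given in CPM, the counts of a gene scaled to a common library total after TMM scaling. Values of single libraries are listed in the order E13, E23, E29, E30 and E32 for the controls and E20, E21, E35, E8 and E9 for the knockdown, by animal number. A gene is said to have risen or fallen, or is called, where its adjusted p was under 0.05 in edgeR's quasi-likelihood test. The fit held all 28 blood libraries, which share 1 estimate of the spread, and 15190 of 40840 genes passed the filter on low counts. Control libraries held 18461678 to 24387329 counts and knockdown libraries 17381156 to 50231510, with no difference detected in the total (exact permutation test over 252 arrangements, two-sided p = 0.706) or in the percentage of counts from haemoglobin genes (p = 0.754). The leukocyte label was borne out by its markers, with Cd3e, a T cell receptor subunit, at 18.1 to 248 CPM and S100a8, a neutrophil and monocyte protein, at 66.4 to 2860 CPM in the 10 libraries. Glp1r itself had 0 counts in every control library, which allows up to 3 counts, and 0 to 6 counts in the knockdown libraries, too few to test.

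The libraries E20, E9 and E23 stood apart within their groups. In E20 of the knockdown, the summed level of 19 pan-T cell genes was 5310 CPM, against at most 1310 CPM in the other knockdown libraries and 459 to 897 CPM in the controls. In E9 of the knockdown, red cell and reticulocyte genes summed to 812000 CPM and platelet genes to 65800 CPM, and 13994 genes had counts, the fewest of the 28. The TMM factor of E9 was 0.487, so its CPM stand higher than shares of its counts would. Haemoglobin genes took 36.3% of its counts, against 9.77 to 33.7% in the controls. In E23 of the controls, mature neutrophil genes summed to 15400 CPM and B cell genes to 1170 CPM, the highest and the lowest of the control libraries. Genes and gene groups described in detail are given with and without some of these libraries where their calls rest on them. Only 18 genes stayed called without E23, so every other call was lost in that fit. Among the other conditions, the young library A44 took 58.7% of its counts from haemoglobin genes; it entered the shared fit only.

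**Figure D1:**
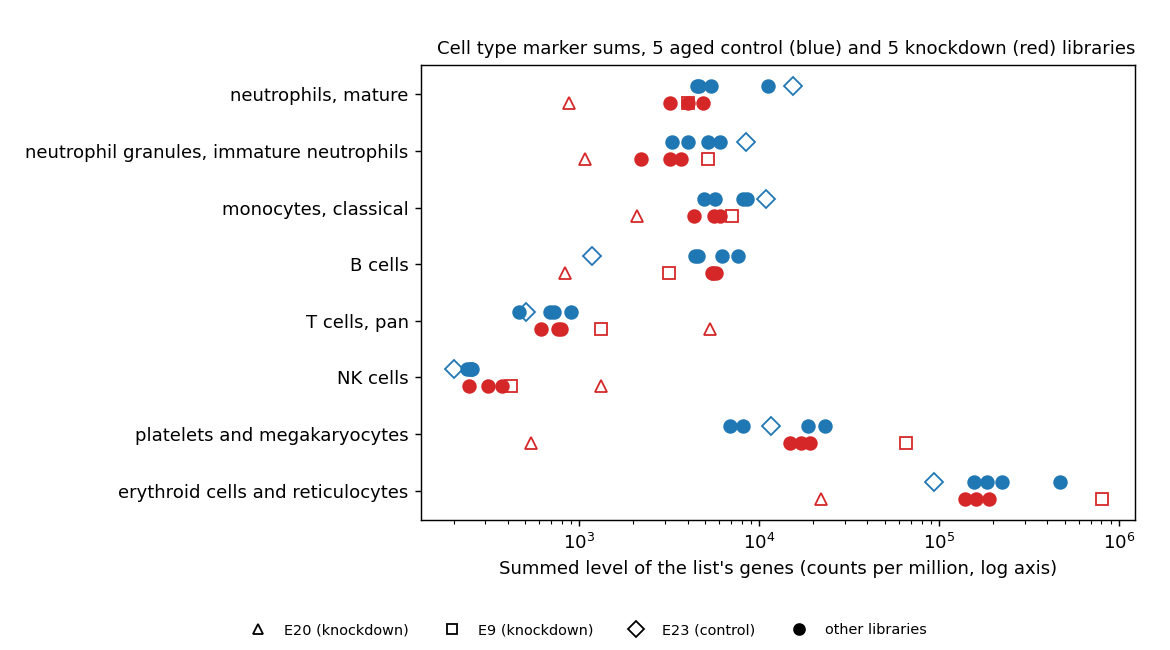
Summed level of the genes of 8 cell type lists (horizontal axis, CPM, log scale) in each of 5 aged control libraries (blue) and 5 knockdown libraries (red), with E20, E9 and E23 drawn as open symbols. E20 is far to the right for the T and NK cell lists (5310 and 1320 CPM) and far to the left for platelets. Il2rb alone gave 1020 CPM of its NK sum, and the NK list's median log2 fold change was -0.60. E9 is far to the right for platelets and red cells.

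The T cell receptor transcripts of E20 came almost wholly from 1 beta and 1 alpha variable segment. Trbv2 gave 3332 of the 3437 counts of all 35 Trbv segments in E20, or 96.9% (95% Clopper-Pearson interval 96.3 to 97.5%), against 0.565 to 6.78% in the other 27 blood libraries. Trav12-3 gave 1268 of 1316 Trav counts, or 96.4% (95.2 to 97.3%), against 0 to 9.52% elsewhere; the intervals cover counting error only. The germline exon that encodes most of each segment is shown because it identifies the transcripts that set this animal apart; both are from GENCODE M21 on GRCm38, Trbv2 at chr6:41047701-41047995 and Trav12-3 at chr14:53621946-53622245, each the last 300 bases of exon 2, or the whole exon where it is shorter, on the plus strand, with capitals on the codon of the conserved cysteine before the junction.
Trbv2: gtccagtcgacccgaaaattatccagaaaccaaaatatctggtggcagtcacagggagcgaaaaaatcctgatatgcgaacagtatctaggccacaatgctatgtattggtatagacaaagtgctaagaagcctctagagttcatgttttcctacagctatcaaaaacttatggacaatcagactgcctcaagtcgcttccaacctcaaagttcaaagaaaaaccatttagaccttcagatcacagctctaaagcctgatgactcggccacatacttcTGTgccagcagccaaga
Trav12-3: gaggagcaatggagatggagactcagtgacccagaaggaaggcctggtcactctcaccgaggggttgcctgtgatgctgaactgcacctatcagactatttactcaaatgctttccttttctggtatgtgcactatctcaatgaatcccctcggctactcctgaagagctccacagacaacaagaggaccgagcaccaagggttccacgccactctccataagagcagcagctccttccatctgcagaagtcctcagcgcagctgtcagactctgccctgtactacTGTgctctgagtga
Trbv2 was also highest in E20 among the animals sampled in each of the other 6 ST tissues, for example 2.84 CPM in heart against at most 0.116 CPM in the other 29 hearts.

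The libraries also fell into a high and a low level of mt-Rnr2, the mitochondrial large ribosomal RNA, with 17 libraries at or below 1740 CPM and 11 at or above 10400 CPM. For mt-Rnr2 alone, CPM are of all counts of the library, with no TMM scaling. All 5 knockdown libraries were low and 3 of 5 controls were high. Mean levels were 11310 CPM in the controls and 1220 CPM in the knockdown (exact permutation test on the means, p = 0.167, smallest possible over all arrangements 0.00794). No split of the high libraries could be more uneven than the one seen, so this p cannot show that the groups were alike. Among the other conditions, 2 of 5 young, 1 of 4 exenatide, 2 of 5 exenatide knockdown and 3 of 4 rapamycin libraries were high. Its part in the results below was tested only as far as the 2 fits given with the counts.

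**Figure D2:**
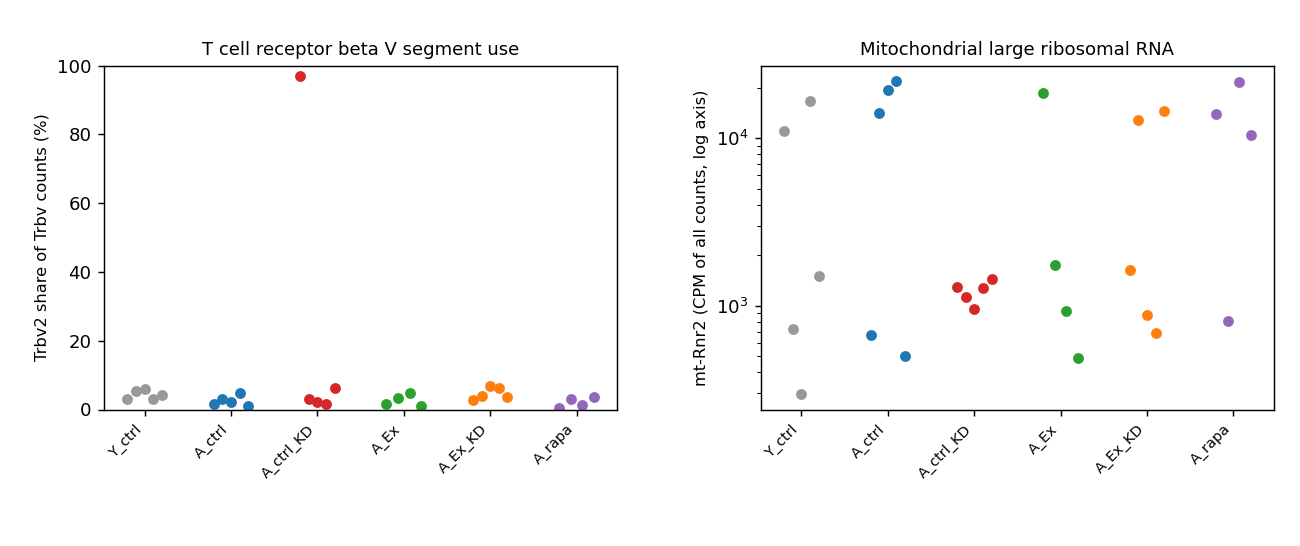
Share of Trbv counts from Trbv2 (left, percent) and mt-Rnr2 (right, CPM of all counts, log axis) in each of the 28 blood libraries by condition. E20 of the knockdown stands at 96.9% on the left, and on the right the 5 knockdown libraries all lie at the low level while 3 of 5 aged controls lie at the high one.

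Between knockdown and control blood, 1211 genes were called (7.97% of those tested), of which 708 rose (4.66%) and 503 fell (3.31%). The smallest adjusted p was 0.00971, and the median log2 fold change of all tested genes was 0.05. For 187 genes all knockdown libraries lay above all controls (1.23%) and for 268 all lay below (1.76%), and 145 and 186 of these were called. The genes that rose had longer transcripts, with a median of 3080 bases against 2029 bases for all genes tested, and those that fell shorter ones with a median of 1431 bases; the median GC content was 48.5% for the former and 55% for the latter, against 50.6%. Lengths were found for 91.7% of the genes tested. With a trend on length and GC content removed, 719 genes rose and 264 fell.

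The number of calls turned on single libraries and on the other conditions in the fit. Without E23, 18 genes were called (0.119%), all of them among the 1211, with 14 rising and 4 falling. Without E20 and E9, 1777 were called (11.6%), with 786 rising (5.12%) and 991 falling (6.46%), of which 384 and 266 were shared with the full set. Without E20, E9 and E23, 526 were called (3.44%), with 293 rising (1.92%) and 233 falling (1.52%). With only the 10 libraries of both groups in the fit, 0 genes were called by edgeR's quasi-likelihood test, with 1934 at an unadjusted p under 0.05; DESeq2's Wald test on all 28 libraries called 2154. With the mt-Rnr2 level as a term 330 genes were called, and with the 17 low libraries alone, which leave 2 controls, 0 were called and 977 had an unadjusted p under 0.05. Altogether 202 genes that rose and 74 that fell were called with all libraries, without E20 and E9, and without E20, E9 and E23.

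**Figure D3:**
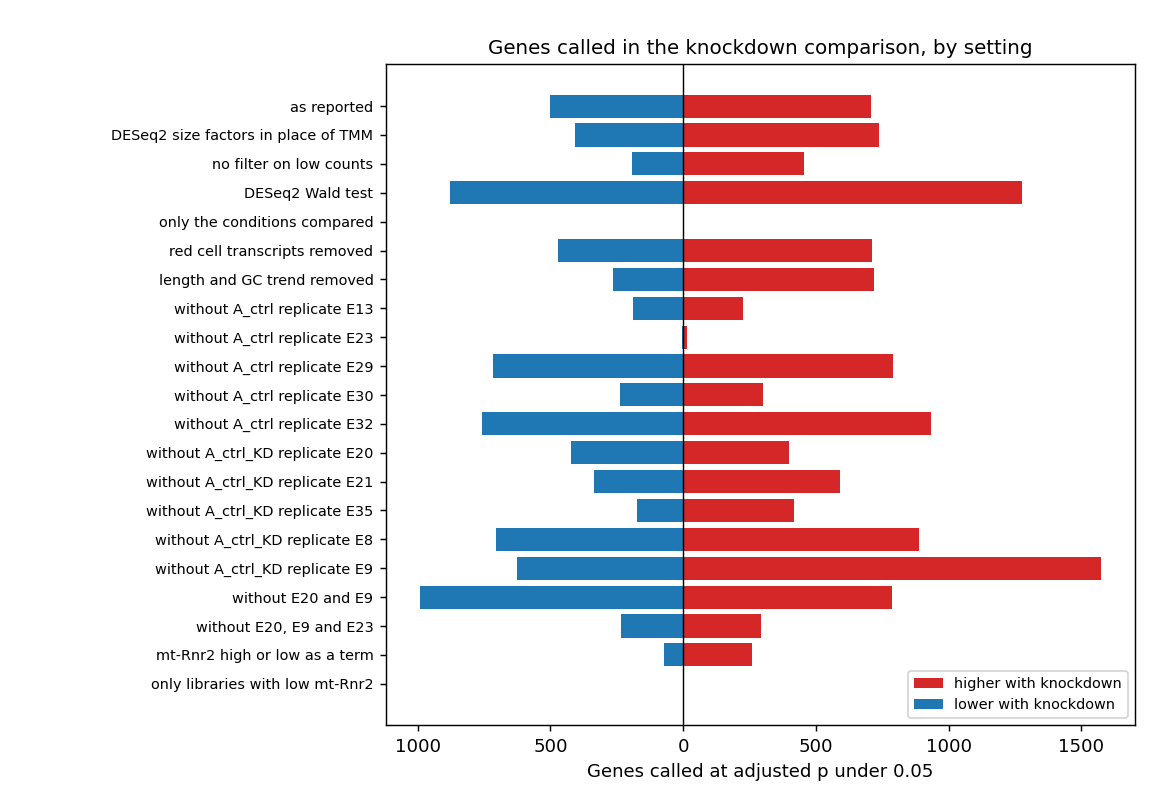
Number of genes called higher (red, to the right) or lower (blue, to the left) in knockdown than in control blood under each setting. The bars run from 0 calls with only the compared conditions or only low mt-Rnr2 libraries, through 18 without E23, to 2199 without E9.

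Of the 18 genes called without E23, 7 have predicted or clone names and 11 have other names. Among the latter, Camta1, Ppp1r12b, Zfp287, Utrn, Dnah8 and Gvin-ps6 rose, and Slc25a11, Slc35c2, Pgls and Ier2 fell. These genes were called in all 10 fits that left out 1 library and in 8 of 10 other settings, the exceptions being the fit of only the conditions compared and that of only low mt-Rnr2 libraries. Pgls and Slc35c2 were named after their values were seen.

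Ppp1r12b, which encodes a regulatory subunit of myosin phosphatase, stood at 7.79, 6.30, 6.91, 11.8 and 9.30 CPM in the controls and 17.3, 17.7, 20.8, 16.7 and 16.9 CPM in the knockdown. Every knockdown library lay above every control, and the log2 fold change was 1.09 ± 0.17 (SE, adjusted p = 0.00971). Camta1, a calmodulin-binding transcription activator, stood at 12.6, 10.7, 20.1, 18.7 and 15.6 CPM in the controls and 34.1, 29.2, 33.2, 27.1 and 37.1 CPM in the knockdown. The groups were again apart, with a log2 fold change of 1.05 ± 0.17 that was 0.92 without E20 and E9. Zfp287, a zinc finger gene, was at 4 to 7.90 CPM in the controls and 12.4 to 20.2 CPM in the knockdown, a log2 fold change of 1.22 ± 0.21.

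Utrn, which encodes utrophin, the relative of dystrophin that links actin to the membrane, stood at 28.6, 52.8, 46.2, 44 and 66.5 CPM in the controls and 247, 103, 134, 66.7 and 81.4 CPM in the knockdown. The lowest knockdown library only just exceeded the highest control, and E20 was the highest; the log2 fold change was 1.41 ± 0.25, and 1.06 without E20 and E9 (adjusted p = 0.0162). Dnah8, an axonemal dynein heavy chain, rose by a log2 fold change of 1.77 ± 0.32, with the groups apart. Gvin-ps6, a pseudogene of the very large interferon-inducible GTPases, rose by 3.33 ± 0.60, from 0.733 to 6.49 CPM to 4.68 to 56.1 CPM, with overlap between groups; its reads may be shared with near-identical copies, so its level is uncertain.

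Among the genes that fell, Slc25a11, the mitochondrial carrier that exchanges oxoglutarate for malate, stood at 91.9, 107, 58, 58.3 and 56 CPM in the controls and 41.7, 42.7, 38, 41.3 and 39 CPM in the knockdown. The knockdown libraries were within a narrow range below all controls, among which E13 and E23 were high; the log2 fold change was -0.87 ± 0.16, and -0.70 without E23 (adjusted p = 0.0457). Pgls, an enzyme of the pentose phosphate pathway, was at 41.3 to 85 CPM in the controls and 30.5 to 37.9 CPM in the knockdown (log2 fold change -0.92 ± 0.17). Slc35c2, a solute carrier, was at 48.4 to 80.3 CPM and 25.9 to 40.4 CPM (-0.79 ± 0.14), and for both genes the groups were apart.

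For these genes the aged controls also had the lowest or the highest mean of the 6 conditions of the cohort's blood. Mean Ppp1r12b was 8.41 ± 2.19 CPM (SD, n = 5) in the aged controls, 17.9 ± 1.69 CPM in the knockdown (n = 5), 17.8 ± 2.07 CPM in the young (n = 5), 15.5 ± 3.22 CPM with exenatide (n = 4), 18.6 ± 4.10 CPM with exenatide and knockdown (n = 5) and 25.4 ± 3.91 CPM with rapamycin (n = 4). Mean Slc25a11 was 74.3 ± 23.8 CPM in the aged controls and 40.5 to 47.6 CPM in the other 5 conditions. The comparisons of age, exenatide and rapamycin use the same 5 aged control libraries as that of the knockdown, so they are not independent of it; Ppp1r12b differed in aged controls from young by -1.09, and in exenatide- and rapamycin-treated mice from aged controls by 0.89 and 1.60 on the log2 scale, all called. Over all genes these comparisons called 3587 (23.6%), 1011 (6.66%) and 1947 genes (12.8%).

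**Figure D4:**
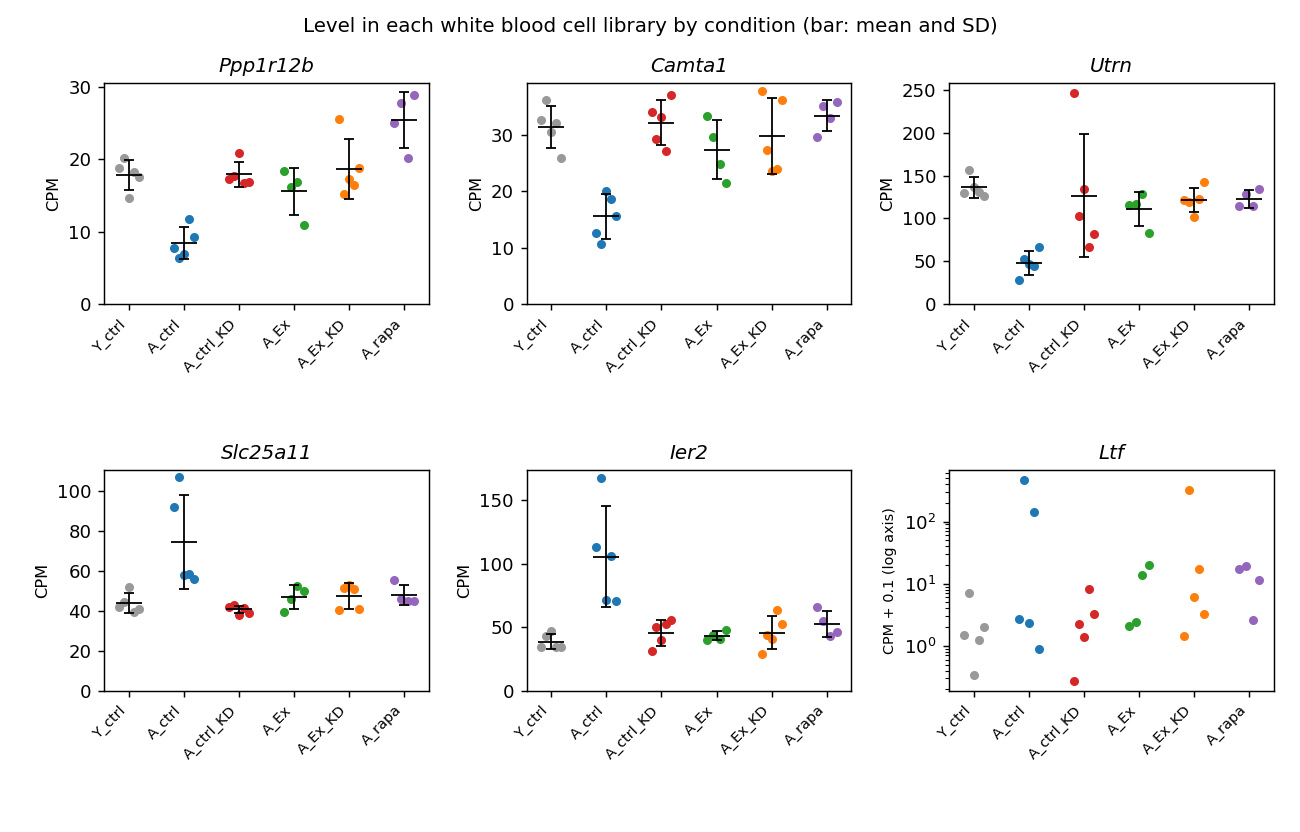
Level of 6 genes in each blood library (CPM; Ltf on a log axis as CPM + 0.1), by condition, with the mean and SD as bars for the 5 genes on linear axes. The aged controls (A_ctrl) have the lowest mean in the upper row, for Ppp1r12b, Camta1 and Utrn, and the highest for Slc25a11 and Ier2, and for Ltf 2 controls (470 and 142 CPM) and 1 exenatide knockdown library lie far above the rest.

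Some rapidly induced (immediate early) genes fell. Of 24 listed and tested, 6 fell and 0 rose, and the list's median log2 fold change was -0.79 against 0.05 for all genes. Without E23, 1 fell (median -0.70), and without E20 and E9, 3 fell and 1, Nr4a3, rose (median -0.45). Of all genes, 3.31% fell with all libraries, while 6.46% fell and 5.12% rose without E20 and E9. Ier2, a nuclear protein induced by growth signals, stood at 113, 167, 71.4, 106 and 70.3 CPM in the controls and 30.8, 50.1, 39.6, 52.7 and 55.2 CPM in the knockdown. All knockdown libraries were below all controls, and the log2 fold change was -1.21 ± 0.22 (adjusted p = 0.00989; 0.0499 without E23). Ier5, which acts on the heat shock transcription factor, stood at 347, 323, 261, 291 and 190 CPM and then 77.2, 184, 134, 167 and 159 CPM. These groups were also apart, with E20 lowest (log2 fold change -0.97 ± 0.23).

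Klf2, a transcription factor of lymphocyte quiescence and trafficking, was at 524 to 1020 CPM in the controls and 360 to 538 CPM in the knockdown, overlapping by 1 library (-0.81 ± 0.20). Zfp36, which encodes the mRNA-destabilizing protein tristetraprolin, fell by 1.04 on the log2 scale, with adjusted p = 0.0284 (0.0683 without E20 and E9). Junb, an AP-1 subunit, and Nr4a1, an orphan nuclear receptor induced by antigen receptor signals, fell by 1.07 and 1.11 with all libraries and were not called without E20 and E9 or without E23. Junb and Nr4a1 were named after their values were seen. The spread of Nr4a1 was wide, from 81 to 267 CPM in the controls and from 26.2 to 121 CPM in the knockdown. Ier2 means in the young, exenatide, exenatide knockdown and rapamycin groups were 38.5, 43, 45.7 and 52.5 CPM, below the 106 CPM of the aged controls.

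Many immediate early promoters hold the cyclic AMP response half-site, and 3 promoters of genes that fell are shown to set one with several half-sites beside one with none. TGACG was searched on both strands in the window from 250 bases before to 50 after each start in RefSeq (GRCm38.p6), where overlapping matches counted separately. It was present in 6837 of 32851 promoters (20.8%), in 15 of the 24 promoters of the 20 matched immediate early genes (62.5%), and in 3 of 5 promoters of those that fell: 4 matches in Nr4a1, 1 each in Junb and Klf2, and none in Ier5 or Zfp36. Ier2, which also fell, had no promoter matched by symbol and is not in this count. A match is a description of these letters only. The windows are chr15:101266596-101266895 for Nr4a1 and chr8:72318812-72319111 for Klf2, both on the plus strand, and chr1:155099587-155099886 for Ier5 on the minus strand, with the matches in capitals.
Nr4a1: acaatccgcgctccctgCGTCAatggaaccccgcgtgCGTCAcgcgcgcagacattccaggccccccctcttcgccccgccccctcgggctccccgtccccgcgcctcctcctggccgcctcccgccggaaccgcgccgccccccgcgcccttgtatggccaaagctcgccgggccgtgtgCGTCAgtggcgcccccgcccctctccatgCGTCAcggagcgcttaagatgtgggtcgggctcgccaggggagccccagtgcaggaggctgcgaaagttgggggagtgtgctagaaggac
Klf2: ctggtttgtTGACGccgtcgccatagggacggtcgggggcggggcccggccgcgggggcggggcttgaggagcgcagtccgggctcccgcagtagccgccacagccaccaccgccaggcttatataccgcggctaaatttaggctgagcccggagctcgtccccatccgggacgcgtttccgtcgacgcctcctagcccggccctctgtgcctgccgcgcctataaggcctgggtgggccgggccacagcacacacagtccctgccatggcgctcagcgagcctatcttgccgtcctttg
Ier5: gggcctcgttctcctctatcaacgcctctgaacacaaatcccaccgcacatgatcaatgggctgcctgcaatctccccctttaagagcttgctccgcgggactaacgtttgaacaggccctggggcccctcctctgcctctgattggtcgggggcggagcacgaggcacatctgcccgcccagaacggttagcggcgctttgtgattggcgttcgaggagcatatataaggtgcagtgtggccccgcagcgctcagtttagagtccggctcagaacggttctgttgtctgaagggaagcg

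Neutrophil genes fell in part, among them granule proteins made by immature cells in bone marrow. Of 18 tested granule genes 6 fell and 0 rose (median log2 fold change -1.80), and of 18 mature neutrophil genes 3 fell and 0 rose (median -1.32). None of either list was called without E23 (medians -1.14 and -1.02), and without E20 and E9 1 of 19 granule genes and 3 of 18 mature neutrophil genes fell. The share of all genes that fell was 3.31% with all libraries and 6.46% without E20 and E9. Summed, the mature genes stood at 4490 to 15400 CPM in the controls and 878 to 4890 CPM in the knockdown, where E20 was the lowest.

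The largest falls, of Camp, Ltf and Ngp, were of genes that were high in 2 control libraries. Camp, the antimicrobial cathelicidin, stood at 1.05, 103, 0.667, 38 and 0.602 CPM in the controls and 0.0680, 0.319, 0.247, 1.68 and 0.828 CPM in the knockdown. E23 and E30 alone were high, and the other 3 controls lay within the knockdown range, so the log2 fold change of -5.63 ± 1.52 (adjusted p = 0.029) was -4.09 and not called without E23. Ltf (lactoferrin) and Ngp (neutrophilic granule protein) had the same 2 high controls, at 470 and 142 CPM and at 505 and 177 CPM. With only low mt-Rnr2 libraries, which leave out both E23 and E30, their log2 fold changes were 0.78 and 0.79. In the exenatide knockdown group, E15 held 36.8 CPM of Camp, 318 CPM of Ltf and 390 CPM of Ngp.

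Pglyrp1, and Upp1 from outside the neutrophil lists, were also highest in E23 and E30, with the remaining controls mostly above the knockdown libraries. Pglyrp1, a peptidoglycan-binding granule protein, stood at 112, 230, 72.5, 161 and 59.6 CPM in the controls and 27.4, 52.8, 36.1, 60.9 and 53.6 CPM in the knockdown. Only E8 exceeded the lowest control, and the log2 fold change of -1.46 ± 0.33 (adjusted p = 0.0177) stayed called without E20 and E9 (-1.38) but not without E23 (-1.14, adjusted p = 0.0778). Upp1, a uridine phosphorylase, was at 2.34 to 36.4 CPM in the controls and 0.0544 to 1.54 CPM in the knockdown, with no overlap and E23 the highest (-3.78 ± 1); it was -2.69 and not called without E23 (adjusted p = 0.135). The alarmins S100a8 and S100a9 were not called, with log2 fold changes of -1.66 and -1.71 (adjusted p = 0.0534 and 0.0602).

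Of 20 Toll-like receptor and inflammasome genes, 4 fell and 0 rose (median -0.68): Tlr2, its co-receptor Cd14, the adaptor Myd88 and the pore-forming Gsdmd. Among all genes 3.31% fell, the share to set beside this list and the monocyte and basophil lists below. Myd88 stood at 87.2, 229, 96.5, 177 and 98 CPM in the controls and 42.3, 73.7, 65.5, 91.1 and 77.4 CPM in the knockdown. E23 and E30 were the high controls and 1 knockdown library, E8, overlapped the lowest control (log2 fold change -0.98 ± 0.29); the 4 genes were not called without E23, and without E20 and E9 Gsdmd alone of those 4 was. Of 14 classical monocyte genes 2 fell, Cd14 and Plac8, and Plac8 reached 1610 CPM in E23 against 179 to 371 CPM in the other controls. Of 13 genes of basophils, mast cells and eosinophils 2 fell, the proteases Prss34, at 29.5 CPM in E23 and at most 2.79 CPM in the other controls, and Cma1, at 0.864 to 3.25 CPM in the controls and 0.0408 to 1 CPM in the knockdown. Plac8, Prss34 and Cma1 were not called without E23, and without E20 and E9 Plac8 and Cma1 were called and Prss34 was not.

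Most T cell genes that rose did so with E20 and not without it. Of 19 pan-T cell genes 8 rose and 0 fell (median log2 fold change 1.29), but without E20 and E9 only Cd28 rose and the median was 0.03. The shares of all genes that rose in these fits were 4.66% and 5.12%. Cd8a, a subunit of the co-receptor of cytotoxic T cells, stood at 74.4, 23.8, 63.4, 22.7 and 61.4 CPM in the controls and 803, 77.2, 66.4, 50.4 and 69.4 CPM in the knockdown. Outside E20 the groups overlapped, and the log2 fold change of 2.12 ± 0.57 became 0.38 without E20 and E9. Cd28, the costimulatory receptor, stood at 26.5, 11.6, 33.1, 21.5 and 28 CPM in the controls and 177, 45.5, 46.5, 36.7 and 57 CPM in the knockdown. All knockdown libraries were above all controls, and it was called with all libraries (1.59 ± 0.34, adjusted p = 0.0152) and without E20 and E9 (0.81, adjusted p = 0.0397), but not without E23 (adjusted p = 0.0606). Lck, the kinase of T cell receptor signalling, had a log2 fold change of 1.36 with all libraries and -0.07 without E20 and E9, and Cd8a and Lck were named after their values were seen.

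The 12 largest rises among the genes named by size were all highest in E20. Dlg5, a scaffold protein of cell polarity, stood at 0.528 to 1.54 CPM in the controls and 172, 4.39, 7.46, 2.16 and 1.66 CPM in the knockdown. Its groups were apart, and the log2 fold change of 5.12 ± 1 was 2.08 without E20 and E9 (adjusted p = 0.0179). Gzmm, which encodes granzyme M, a protease of NK and cytotoxic T cells, was at 198 CPM in E20 and at most 4.19 CPM in the other knockdown libraries. Tafa3, Wfikkn2, Heatr9, Myo3b, Dmrta1, Pak6, Lrrc75b, Ddc and Slc6a19 were also highest in E20, at 19.7 to 95.8 CPM, with the other knockdown libraries at most at 11.2 CPM. Without E20 the log2 fold changes of Gzmm and Ddc were -0.60 and -0.06. Of 13 NK cell genes 2 rose and 1 fell with all libraries (4.66% and 3.31% of all genes did), and 0 were called without E20 and E9.

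A few antigen presentation and cytokine genes fell, where 3.31% of all genes fell and 4.66% rose. Of 11 MHC class II genes 3 fell and 0 rose (median -0.72), the peptide exchange factors H2-DMa and H2-DMb1 and the invariant-chain protease Ctss. H2-DMa stood at 207, 119, 134, 140 and 106 CPM in the controls and 38.8, 89.2, 79.1, 123 and 67.8 CPM in the knockdown. E20 was the lowest and E8 lay within the controls, with a log2 fold change of -0.83 ± 0.21 that was -0.56 and not called without E20 and E9, where H2-DMb1 was the 1 class II gene that fell. H2-Ab1, a class II chain, was lower in all knockdown libraries than in all controls but not called (-0.89 ± 0.32, adjusted p = 0.0747). Of 19 B cell genes 0 were called by edgeR's quasi-likelihood test, with a median of -0.17 with all libraries and 0.22 without E20 and E9. Of 21 inflammatory cytokine and NF-kB target genes 3 fell, Nfkbia, Bcl3 and Tnf; Nfkbia, the inhibitor of NF-kB that NF-kB itself induces, was at 78.9 to 136 CPM in the controls and 52.8 to 83.9 CPM in the knockdown (-0.60 ± 0.14, adjusted p = 0.0175). Without E20 and E9 it stayed called, and Bcl3 (adjusted p = 0.0833) and Tnf (0.139) did not. Nfkbia is also on the list of glucocorticoid-responsive genes, where 4 of 20 fell and 0 rose with a median of -0.16. Of 29 interferon-stimulated genes 1 rose and 0 fell (median -0.64). Without E23, 0 genes of these class II, B cell, cytokine, glucocorticoid and interferon lists were called by edgeR's quasi-likelihood test. Nfkbia then had an adjusted p of 0.0718.

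Some genes of protein folding in the endoplasmic reticulum and a few lysosome genes fell, beside 3.31% of all genes tested. Of 24 genes listed for the unfolded protein response and related stress signalling, 4 fell and 0 rose (median -0.44): Hspa5, the main chaperone there, Pdia6, Sdf2l1 and the transcription factor Xbp1. Hspa5 was at 169 to 329 CPM in the controls and 117 to 214 CPM in the knockdown, overlapping (-0.70 ± 0.18). Without E20 and E9 Pdia6 and Sdf2l1 stayed called, and Hspa5 (adjusted p = 0.0688) and Xbp1 (0.0754) did not. Without E23, 0 of the 24 were called by edgeR's quasi-likelihood test, with Pdia6 at adjusted p = 0.129 and Sdf2l1 at 0.103. Of 29 lysosome and autophagy genes 2 fell (median -0.33), Ctsa and Tfeb. Ctsa was not called without E20 and E9 (adjusted p = 0.0728) or without E23 (0.105). Tfeb, the transcription factor that drives lysosome genes, stood at 104, 107, 69.3, 73.1 and 63.3 CPM in the controls and 18.4, 53.4, 44.9, 50.4 and 48.9 CPM in the knockdown. The groups were apart, with E20 lowest, and the log2 fold change was -0.95 ± 0.20 (adjusted p = 0.0152), -0.78 without E20 and E9 and -0.85 without E23 (adjusted p = 0.0618).

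The calls among energy and protein synthesis genes depended on whether E20, E9 and E23 were in the fit. Of 42 nuclear-encoded oxidative phosphorylation genes 3 fell with all libraries (median -0.24), 28 without E20 and E9 (median -0.85) and 10 without E20, E9 and E23. Falls among all genes in these fits were 3.31%, 6.46% and 1.52%. Ndufs7, a complex I subunit, stood at 42.8, 54.8, 31.4, 29.6 and 23 CPM in the controls and 30.9, 17.8, 13.4, 21.1 and 25.3 CPM in the knockdown. E20 and E9 were the 2 highest of the knockdown libraries, and the log2 fold change was -0.74 ± 0.23 with and -1.09 without them. Of 49 cytosolic ribosomal protein genes 0 were called by edgeR's quasi-likelihood test with all libraries (median 0.17), 17 fell without E20 and E9 (median -0.69) and 1 fell without E20, E9 and E23. Of 25 proteasome genes 2, 13 and 3 fell in these same fits. Without E23 alone, 0 genes of the oxidative phosphorylation, ribosomal protein and proteasome lists were called by edgeR's quasi-likelihood test. Their medians there were -0.12, 0.15 and -0.15, and 0.119% of all genes were called. The genes that fell without E20 and E9 were short, with a median transcript length of 1055 bases, and those that rose long, with a median of 4215 bases.

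The calls among signalling genes near cyclic AMP and mTOR changed with the libraries in the fit. All genes together rose in 4.66% and fell in 3.31% with all libraries, and in 5.12% and 6.46% without E20 and E9. Of 21 cyclic AMP genes 2 rose, the phosphodiesterase Pde4d (log2 fold change 0.78) and the catalytic protein kinase A subunit Prkacb (0.56). Neither was called without E20 and E9 (adjusted p = 0.0819 and 0.0805), where the coactivator Crebbp was the 1 that rose (0.56), and 7 rose without E9 alone. Without E23, 0 of the 21 were called by edgeR's quasi-likelihood test, with Pde4d at adjusted p = 0.118 and Prkacb at 0.156. Of 23 PI3K, mTOR and insulin genes Sesn3 and Rptor rose and Akt1 fell. Without E9, 7 of these rose and 1 fell, in a fit in which 1573 of 15158 genes rose. Without E20 and E9, Sesn3 (1.56), Rictor (0.75), Tsc1 (0.78), Mtor (0.65) and Pik3r1 (0.41) rose and Rheb fell (-0.55), and Akt1 was not called (adjusted p = 0.0617). Without E23, 0 of the 23 were called by edgeR's quasi-likelihood test. Without E20, E9 and E23, Sesn3 alone was called (1.41, adjusted p = 0.0408). Rptor, the mTORC1 scaffold, was at 99.8 CPM in E20 and 23.7 to 37.1 CPM in the other knockdown libraries, and its log2 fold change of 1.07 was 0.51 and not called without E20 (adjusted p = 0.147). Sesn3, a sestrin that restrains mTORC1, stood at 7.29, 5.32, 11.8, 8.20 and 14.9 CPM in the controls and 50.1, 34.1, 35.6, 15 and 14.5 CPM in the knockdown. All but E8 and E9 were far above the controls, and the log2 fold change was 1.67 ± 0.31 (adjusted p = 0.0119; 0.053 without E23). Of the 11 genes of incretin and related peptides and receptors 3 were tested, Dpp4, Adcyap1r1 and Vipr1. Vipr1, a receptor of vasoactive intestinal peptide that T cells carry, rose (1.80 ± 0.52, adjusted p = 0.0359), with E20 at 61.7 CPM and the next knockdown library at 17.6 CPM; without E20 and E9 it was 0.67 and not called. Of 26 proliferation genes and 25 red cell genes 0 were called by this test.

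Zbed6 and Lnpep, listed because earlier results of this series showed them raised by the knockdown in other tissues, rose in blood too. Zbed6, a transcriptional repressor of Igf2 encoded within another gene, stood at 3.53, 12.1, 17.8, 17.6 and 27.4 CPM in the controls and 59.7, 56.2, 74.6, 30.3 and 24.6 CPM in the knockdown. Only E9 fell within the control range (log2 fold change 1.65 ± 0.34, adjusted p = 0.0143), and since it lies within another gene its reads are uncertain. Lnpep, the insulin-regulated aminopeptidase, was at 27.4 to 117 CPM in the controls and 78.8 to 215 CPM in the knockdown (1.14 ± 0.29). Neither was called without E23, and both were called without E20 and E9. For both genes the aged controls had the lowest mean of the 6 conditions. Mean Zbed6 was 15.7 CPM in aged controls, 49.1 with knockdown, 60.4 in young, 58 with exenatide, 63 with exenatide and knockdown and 60.5 with rapamycin. Mean Lnpep was 68.2, 150, 202, 200, 218 and 227 CPM in the same order. In exenatide-treated mice the knockdown effects were 0.12 ± 0.35 for Zbed6 and 0.13 ± 0.31 for Lnpep, neither called.

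The knockdown was also compared in exenatide-treated mice, which do not share controls with the comparison above. Between ST_A_Ex_KD and ST_A_Ex, 0 of 15190 genes were called (0%) by edgeR's quasi-likelihood test, with 46 at an unadjusted p under 0.05, and DESeq2's Wald test also called 0. Those 46 are 0.303% of the genes, below the share of 0.05 that unaffected genes would give on average. The reason for this low share was not tested, and the 0 calls do not show that the knockdown had no effect. The difference between the knockdown effects with and without exenatide was called for 0 genes (0%), with 1314 at an unadjusted p under 0.05, a smallest adjusted p of 0.55 and 0 calls by DESeq2's Wald test, so no gene was shown to respond differently. For Ppp1r12b the effect was 0.26 ± 0.18 with exenatide, and the difference between the effects was -0.83 (unadjusted p = 0.00264, adjusted p = 0.55). For Ier2 the effect was 0.09 ± 0.23 with exenatide, and for Slc25a11 it was 0.02 ± 0.16. The medians of the immediate early, granule and pan-T cell lists were 0.10, 0.11 and 0.20 in the exenatide-treated mice.

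**Figure D5:**
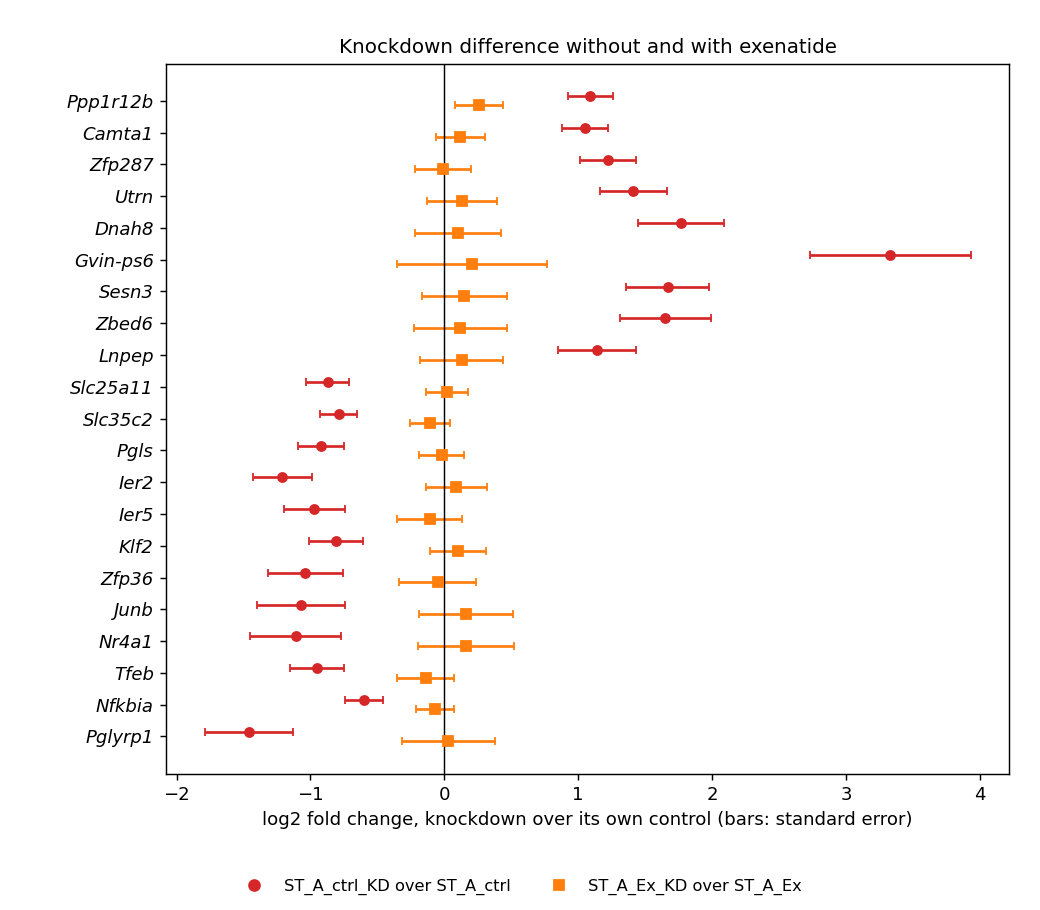
Log2 fold change of knockdown over its own control for 21 genes in mice without exenatide (red circles) and with it (orange squares), with standard errors as bars. The orange values lie between -0.14 and 0.26, and the red ones between -1.46 and 3.33; the difference was not called for any gene.

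In the other ST tissues, fitted each on its own, the same comparison called 925 genes in hippocampus (4.98%), 572 in skeletal muscle (3.83%), 1152 in frontal cortex (6.32%) and 11 in heart (0.0698%), and 0 in adipose tissue and in colon (0%), where 505 and 253 genes had an unadjusted p under 0.05 and DESeq2's Wald test called 2 and 0. Counts changed with single libraries there as well, from 317 to 2705 in hippocampus, 194 to 2257 in skeletal muscle, 0 to 1378 in frontal cortex and 0 to 150 in heart when 1 was left out. In frontal cortex edgeR's quasi-likelihood test called 0 genes without E13, E20, E23, E35 or E8, with 3848 to 4419 at an unadjusted p under 0.05, and in heart it called 0 without E13, E29, E30, E35 or E9, with 1272 to 2315. Lnpep, Zbed6 and Sesn3 also rose in hippocampus (log2 fold changes 2.44, 1.94 and 0.60) and skeletal muscle (2.11, 3.20 and 1.45), which for Lnpep and Zbed6 is not independent of the earlier results they were listed for. They were not called in heart (-1.02, -0.89 and -0.65), frontal cortex (-0.03, -0.13 and -0.03), adipose tissue (0.68, 2.73 and 0.92) or colon (0.07, 0.31 and -0.06). Ppp1r12b, Camta1, Zfp287, Slc25a11 and Ier2 were not called in any of the 6 tissues. The tissues come from overlapping sets of animals, so they are not independent samples.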

How the data were processed

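Poly(A) RNA of mouse white blood cells was sequenced from 28 animals of the ST cohort, 1 library each. Per the labels' protocols, tissue kept in RNAlater was extracted with TRIzol or the RNAqueous kit, and libraries were made with the NEBNext Ultra II kit; the sources used here do not give the strand setting of the counting, so whether reads of a gene and of an antisense partner were told apart is not known. GRCm39 is the build, and FastQC 0.11.9 a tool, per the submitters' processing notes; no source used here names the aligner or the counting tool. Estimated counts per gene were deposited by the authors in 1 table, in which 7.12% of the non-zero blood values were not whole, and these expected counts were rounded here. Such estimates split reads between similar genes in a way that cannot be checked from the table.

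Groups came from the titles. edgeR 4.0.16 (R 4.3.3) was used with its filter on low counts by condition, TMM scaling and a robust quasi-likelihood fit with 1 term per condition over all 28 libraries. The Benjamini-Hochberg adjustment of p was made over all 15190 genes tested in each comparison, and SE is the log2 fold change divided by the square root of F. Animals are separate, so p-values measure the spread between animals of 1 batch. Each of the other 6 ST tissues was fitted alone in the same way. On simulated counts with the real means and 15190 genes, 58% of genes changed 2-fold and 97% of those changed 4-fold were recovered in the knockdown comparison, with 3 unchanged genes called. The changed genes were taken only from those with higher mean counts. Counts were drawn independently for each gene, with no libraries that stand apart as E20, E9 and E23 do. These rates therefore need not hold for the real libraries.

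Genes were named as the largest called rises and falls (up to 12 each, average log2 CPM of at least 1), the 8 smallest adjusted p-values, up to 4 members of a list by smallest p, incretin receptors and defining cell markers, leaving out predicted names and receptor segments; others are said to be named afterwards. Some genes the rule names are not reported here. The members compared, the 45 gene lists and this rule were chosen with earlier results of these data known. Lists are described by counts and medians, with no test of their own, beside the value over all genes. Of 43 lists with 5 or more tested genes, 14 had 0 called by edgeR's quasi-likelihood test, and lists with at most 1 call are not all described.

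Alternatives were DESeq2 1.42.0 size factors, DESeq2's Wald test, no filter, only the conditions compared, red cell genes removed, a length and GC trend removed, and each library left out in turn. Leaving out E20 and E9, or these with E23, and the 2 fits on mt-Rnr2 were added after the data were seen. Transcript lengths and coordinates are from GENCODE M21 or RefSeq on GRCm38, not the build of the counts, and were matched by symbol. Counts limit the precision of low genes, and the values of single libraries below 1 CPM rest on few reads.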

Additional observations from a re-analysis of the deposited data

Results flagged for a closer look

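Values were looked at again where 1 of 5 animals of a group lay far from the others (Dixon's criterion at 95%). Of 224 groups of values 50 met it, where chance alone marks about 1 in 20 groups. Many of the values were of genes named for their size or call in this same comparison, or of genes sharing a cell type, so the number cannot be read against that rate. Of the 50, 30 were the highest value in E20 and 4 the lowest in E20 of the knockdown group.

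E20 had 50231510 counts in all, with the next knockdown library at 23625892, and its summed pan-T cell genes were at 5310 CPM (next 1310) and NK cell genes at 1320 CPM (next 415). Most of that NK sum came from Il2rb at 1020 CPM and Txk at 137 CPM. Of T and NK cell genes, E20 had 177 CPM of Cd28, 223 of Bcl11b, 190 of Cd247, 803 of Cd8a, 723 of Cd8b1, 793 of Tcf7, 693 of Il7r, 248 of Cd3e, 559 of Lck, 137 of Txk, 1020 of Il2rb, 198 of Gzmm and 45.3 of Trbv2. Of other genes that were highest there, Dlg5 was at 172 CPM, Tafa3 at 42.6, Wfikkn2 at 95.8, Heatr9 at 20.1, Myo3b at 19.7, Dmrta1 at 45.9, Pak6 at 24.6, Lrrc75b at 33.6, Ddc at 24.9, Slc6a19 at 74.9, Rptor at 99.8, Prkacb at 192, Slc11a2 at 76.4 and Vipr1 at 61.7 CPM. It was lowest for Tfeb at 18.4 CPM, Hmox1 at 3.63, Cd79a at 56.7 and H2-Ab1 at 125 CPM. Levels in the other 4 knockdown libraries were nearer to the controls for the genes described with and without E20 above.

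Trbv2 transcripts were above those of every other animal in E20's other tissues too, with 3.48 CPM in adipose tissue (next animal 1.25), 0.693 in colon (0.309), 0.239 in frontal cortex (0.0397), 2.84 in heart (0.116), 0.334 in hippocampus (0.0831) and 0.0839 CPM in skeletal muscle, where the other 29 animals had 0 counts. The skeletal muscle value rests on 2 counts and the frontal cortex value on 6.

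E9 of the knockdown was highest for Alas2 at 36100 CPM, Gclc at 72.6 CPM, summed platelet genes at 65800 CPM and summed red cell genes at 812000 CPM, and lowest for the number of genes with counts at 13994. These TMM-scaled levels are not shares of its counts, of which haemoglobin genes took 36.3%. E23 of the controls was highest for Prss34 at 29.5 CPM, Ly6i at 56.7, Plac8 at 1610 and Psma1 at 106 CPM, and lowest for Zfp287 at 4 CPM. Single values elsewhere were E13 of the controls for Gzmm at 12.7 CPM and H2-Ab1 at 1720 CPM, E32 of the controls for Gvin-ps6 at 6.49 CPM and Alas2 at 29000 CPM, E35 of the knockdown for Ppp1r12b at 20.8 CPM, and E8 of the knockdown for Ngp at 15.2 CPM.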

How the results depend on the processing

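The count of 1211 called genes in blood was 1144 with DESeq2 size factors, 1185 with red cell genes removed and 983 with the length and GC trend removed, but 648 with no filter, 2154 with DESeq2's Wald test and 0 with only the conditions compared (1934 at an unadjusted p under 0.05). Leaving out 1 library gave 18 (without E23) to 2199 (without E9), with 412, 539 and 591 without E13, E30 and E35. It was 1777 without E20 and E9, 526 without these and E23, 330 with the mt-Rnr2 level as a term and 0 with only low mt-Rnr2 libraries (977 at an unadjusted p under 0.05). The exenatide-treated comparison and the difference between effects gave 0 calls in every setting run. In other tissues, DESeq2's Wald test called 2 genes in adipose tissue, 2021 in frontal cortex, 172 in heart and 1158 in skeletal muscle, and only the conditions compared gave 2935 in frontal cortex, 0 in heart, 161 in hippocampus and 105 in skeletal muscle. Leaving out 1 library gave 0 to 1378 in frontal cortex, 0 to 150 in heart, 317 to 2705 in hippocampus and 194 to 2257 in skeletal muscle.

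Of the log2 fold changes called in blood, these turned direction: Ddc to -0.06 and Gzmm to -0.60 without E20 (their values with 1 library left out reached 2.88 and 3.92); Ddc to -0.10, Gzmm to -0.56 and Lck to -0.07 without E20 and E9; Cd8b1 from 2.13 to -0.12, Ddc to -0.07, Gzmm to -0.57, Lck to -0.10 and Slc11a2 to just under 0 without E20, E9 and E23; and Igfbp6 from -2.39 to 0.26, Ltf to 0.78 and Ngp to 0.79 with only low mt-Rnr2 libraries. Of genes not called, Cd3e went from 1.36 to -0.13 without E20, E9 and E23, and Alas2 from 0.43 to -0.40 without E9, -0.02 without E20 and E9, -0.28 without all 3, -0.68 with the mt-Rnr2 term and -0.56 with only low mt-Rnr2 libraries. The cause was not tested. No paired analysis was possible because the groups compared share no animal number. With 2 to 5 animals per group, 1 sequencing batch and no check of the knockdown in these animals' hypothalamus, the number of calls is set by few libraries, and genes under 1 CPM are limited by depth.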

Other observations

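Senescence, clock and iron genes gave a few further calls in knockdown against control blood, by edgeR's quasi-likelihood test. Over all genes 4.66% rose and 3.31% fell, so a single call in a list of this size is close to that share. Of 13 senescence and p53 target genes 2 fell and 0 rose (median log2 fold change -0.10, against 0.05 for all genes). Plaur, the urokinase receptor, stood at 51.2, 117, 33.3, 67.9 and 37.1 CPM in the controls and 6, 25.5, 25.6, 34.2 and 25.2 CPM in the knockdown, and only E8 exceeded the lowest control (-1.40 ± 0.34, adjusted p = 0.0211; 0.0307 without E20 and E9 and 0.101 without E23). Cdkn1a, the inhibitor of cyclin-dependent kinases known as p21, was at 3.53 to 12.3 CPM in the controls and 2.52 to 5.32 CPM in the knockdown, overlapping (-1.25 ± 0.38).

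Of 17 circadian clock genes 1 rose and 1 fell (median -0.02). Clock was at 16.6 to 27.7 CPM in the controls and 17.2 to 45.8 CPM in the knockdown, where E9 was lowest (0.65 ± 0.19). Nfil3, a repressor within the clock network, was at 53.3 and 54.5 CPM in E23 and E30, at 13.5 to 23 CPM in the other controls and at 6.54 to 17.6 CPM in the knockdown (-1.24 ± 0.39). Of 22 oxidative stress and iron genes 2 rose and 1 fell (median 0.13): Gclc and Slc11a2 rose, the latter with E20 at 76.4 CPM, and the haem-degrading enzyme Hmox1 fell (-1.36 ± 0.41). None of these 5 genes was called without E23.

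Platelet genes, 20 in number, had a median log2 fold change of 0.84 with 0 called; the platelet chemokine Ppbp ran from 858 to 3900 CPM in the controls and from 59.5 CPM in E20 to 9740 CPM in E9 in the knockdown. The 14 complement genes had a median of -0.83 with 0 called, and the 13 neural and hormone receptor genes tested a median of -0.27 with 0 called.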
